A study of Mus musculus with 8 samples.

Results

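Genes of the insulin-producing islet cell and of the insulin family were followed in embryonic mouse gut, 7 in all: Ins1 and Ins2, the insulin genes of the mouse, Iapp, which encodes amylin, Insl5, which encodes insulin-like peptide 5, G6pc2, Pdx1 and Slc30a8. They were chosen by gene symbol, as the probes whose gene name in the scanner files equals one of the 7 symbols. Each had 1 probe among the 55681 gene probes of the array, and 5 of the 7 passed the filter on dim probes and so were among the 23282 genes tested. G6pc2 and Slc30a8 did not pass it. RNA of the small intestine was measured on 8 single-colour arrays from mouse embryos at stage E18.5, 4 of them labelled control and 4 labelled Rfx6 knockout. Rfx6 is a transcription factor of the endocrine cells of gut and pancreas, and the comparison asks which intestinal genes depend on it.

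The control embryos were wild type (Rfx6+/+), and the knockout embryos were Rfx6-/-. Animals with a floxed Rfx6 allele had been crossed with CMV-Cre animals, in which a broadly active viral promoter drives the recombinase, and the resulting Rfx6+/- animals were bred together, so the deletion in Rfx6-/- embryos was not limited to intestinal cells. Strain, sex and whether a sample came from 1 embryo are not given in the sources used here, so the p-values measure the spread between these samples only. The Rfx6 probe was well above background on 8 of 8 arrays and differed by 0.38 on the log2 scale (SE 0.29, knockout higher, limma adjusted p = 0.503). Where this probe lies relative to the deleted part was not established, so it does not check the labels.

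Insulin is cut from a precursor into A and B chains that disulfide bonds hold together, is stored with zinc in granules of the beta cell, and is released with amylin when blood glucose rises. Slc30a8 carries zinc into those granules, G6pc2 is the glucose-6-phosphatase subunit of islet cells, which acts against the first step of glucose use, and Pdx1 is a homeodomain factor of pancreas development, of the beta cell and of the duodenum. Insl5 belongs to the relaxin branch of the insulin family, keeps the A and B chain layout, and is known as a hormone of enteroendocrine L cells, mainly in the distal gut.

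The probes of the insulin gene Ins1 and of Insl5 are shown because they cover the same part of both hormones, the A chain with its cysteines, and because both signals were lower in the knockout. Capitals mark TGC and TGT, the codons of cysteine, that stand at the same spacing in both: a neighbouring pair, then 1 that follows 4 codons on, then 1 that follows 9 codons further.
Ins1: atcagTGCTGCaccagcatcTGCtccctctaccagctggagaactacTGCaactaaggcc
Insl5: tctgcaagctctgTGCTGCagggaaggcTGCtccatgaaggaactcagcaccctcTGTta
Aligned on the first marked codon, the probes were identical at 28 of 52 bases (53.9%). In the Ins1 probe the reading frame of the marked codons meets a taa stop at base 54, so all but the last 4 bases are coding sequence or stop. The Ins1 and Ins2 probes shared no run longer than 7 bases on either strand. That comparison is of probe with probe. The Ins1 probe was not set against the whole Ins2 transcript, so its specificity is not shown. How much Ins2 RNA binds the Ins1 probe was not tested.

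In mm9, the build the probe table uses, the 60-base Ins1 probe lies at chr19:52339385-52339444 on the plus strand and the Insl5 probe at chr4:102690720-102690779 on the minus strand. The Ins2 probe is at chr7:149864566-149864625 (minus strand), Iapp at chr6:142252275-142252334, Pdx1 at chr5:148086570-148086629, G6pc2 at chr2:69065947-69066006 and Slc30a8 at chr15:52167214-52167273, the last 4 on the plus strand. The probe table places each of the 7 within the gene's messenger RNA and so in exon sequence.

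Before the values, the tissue. All 8 genes of an intestinal epithelium list (Cdx2, Vil1, Fabp2 and others) were well above background on all 8 arrays. Of these 8, 3 were lower in the knockout (limma adjusted p under 0.05), Fabp2, Lct and Apoa4, and 0 with quantile normalization or median centring. The summed processed signal of the 8 ran from 899247 to 975707 units in controls and from 646022 to 793507 in knockouts. Genes typical of other organs were detected as well. Of 17 exocrine pancreas genes, 14 were tested. Their summed processed signal ran from 24619 to 72867 units in controls and from 14716 to 48153 in knockouts, and Ptf1a and Pnlip were well above background on no array. Of 16 stomach genes 13 were tested and 10 were higher in the knockout (limma adjusted p under 0.05), with summed signals of 665 to 4807 units in controls and 283636 to 528968 in knockouts. In controls Gkn2, Cblif, Atp4a and Vsig1 were well above background on no array. Of the hindgut genes Hoxb13 and Hoxd12 were well above background on no array. Whether this RNA came from other tissue or from the intestine itself, and its part in the results below, was not tested.

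Across all 23282 genes, limma called 1145, or 4.92%, at an adjusted p under 0.05: 602 lower in the knockout (2.59%) and 543 higher (2.33%). With arrays centred on their median in place of the 75th percentile, the split was 253 lower and 545 higher. With quantile normalization it was 469 lower and 624 higher. Of the 7 genes followed here 4 were lower past the threshold, Ins1, Ins2, Iapp and Insl5, and 0 were higher. For each of the 5 tested, the 4 knockout levels lay below the 4 control levels, which held in that direction for 9.21% of all tested genes. Ins1 passed the filter through the controls alone. Ins2, Iapp, Insl5 and Pdx1 passed it through both groups. In bulk RNA a lower signal from fewer cells and from less RNA per cell cannot be told apart.

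**Figure D1:**
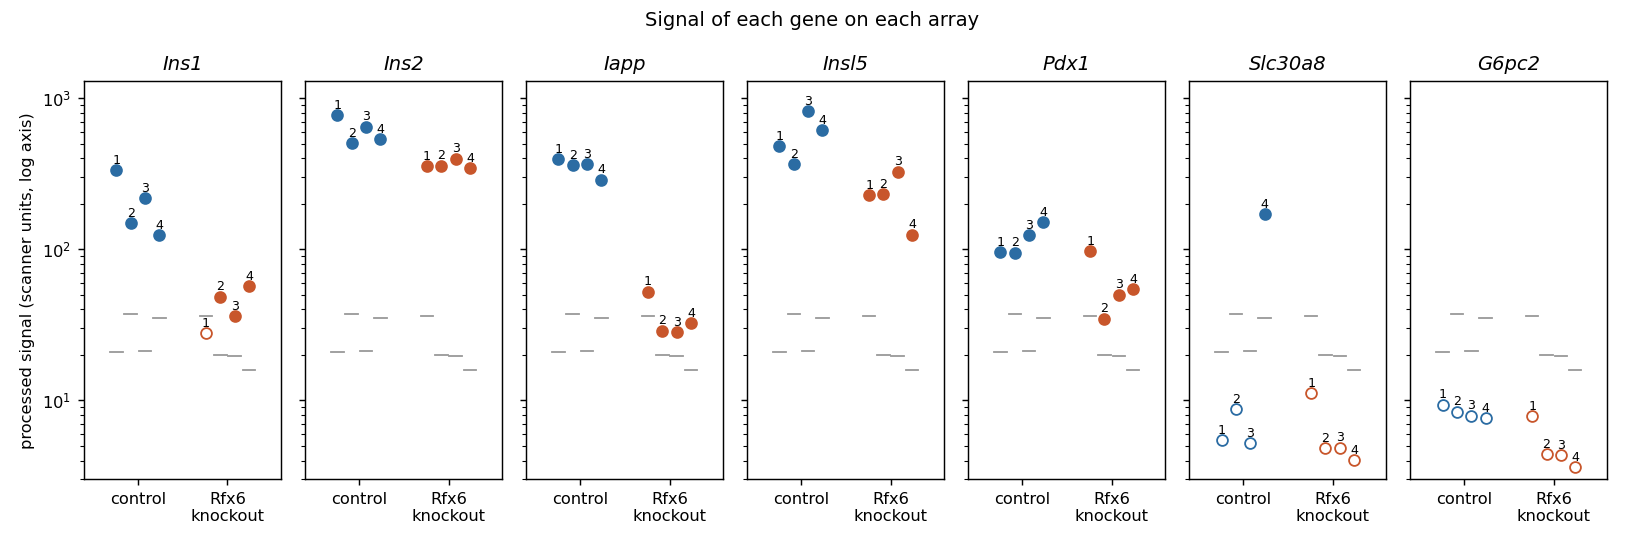
Processed signal (scanner units, log axis) of the 7 probes on each of the 4 control (blue) and 4 knockout (orange) arrays, with the replicate number at each point. Open points are not well above background, and the grey dashes are the lowest signal well above background on that array. The Iapp signals fall from between 290 and 396 to between 28.4 and 52.6, and all 8 G6pc2 points are open.

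Iapp, the amylin gene, had the largest difference of the 5 tested. Its processed signal was 396, 363, 366 and 290 units on control arrays 1 to 4 and 52.6, 28.9, 28.4 and 32.5 units on knockout arrays 1 to 4. The groups were far apart, and the controls lay within 1.37-fold of each other. On the log2 scale, with the 75th percentile of each array at 0, the level was -0.94 ± 0.23 (SD, n = 4) in controls and -4.33 ± 0.38 (SD, n = 4) in knockouts. The difference of -3.39 (SE 0.19) is 10.5-fold, leaving 9.52% of the control signal (limma adjusted p = 2.9e-05). Among tested genes it was the 11th largest fall. All 8 Iapp signals were well above background, but the knockout signals were near the lowest signals so called on those arrays, which were 16.0 to 35.9 units. With normexp background correction the fall was 3.96-fold (adjusted p = 1.1e-05), and in the authors' quantile-normalized values, from which no background was subtracted, it was 3.91-fold (adjusted p = 8.6e-06).

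Ins1, which in mice is expressed with Ins2 in beta cells, gave 334, 148, 219 and 124 units on control arrays 1 to 4 and 27.8, 48.6, 36.1 and 57.0 units on knockout arrays 1 to 4. The controls spread over 2.69-fold, with controls 1 and 3 highest, and no knockout reached the lowest control. The signal of knockout 1 was not well above background. The mean level was -1.82 ± 0.68 (SD, n = 4) in controls and -4.09 ± 0.55 (SD, n = 4) in knockouts. The difference was -2.27 (SE 0.36), a 4.83-fold fall (limma adjusted p = 0.00929). Since knockout 1 was not well above background, this fold rests in part on a value near background. Without knockout 1, which leaves only arrays where Ins1 was well above background, the difference was -2.06 (adjusted p = 0.0269). It was 2.34-fold with normexp (adjusted p = 0.0125) and 2.29-fold in the authors' quantile-normalized values (adjusted p = 0.0167).

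Ins2, the other insulin gene, gave 774, 507, 649 and 536 units in controls 1 to 4 and 354, 358, 398 and 344 units in knockouts 1 to 4. The knockouts were close together, within 1.16-fold, and the controls ranged over 1.53-fold. The groups did not overlap. The level was -0.15 ± 0.33 (SD, n = 4) in controls and -0.93 ± 0.10 (SD, n = 4) in knockouts. The difference was -0.78 (SE 0.15), a 1.72-fold fall that left 58.1% of the control signal (limma adjusted p = 0.0232). This call was lost with median centring (-0.72, adjusted p = 0.0623), with no filter on dim probes (adjusted p = 0.0803) and without any of 3 arrays. Those were control 3 (-0.73, adjusted p = 0.0648), knockout 1 (-0.74, adjusted p = 0.0744) and knockout 2 (-0.78, adjusted p = 0.0745).

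The arrays with the most insulin signal among the controls were also those with the most exocrine pancreas signal. The knockouts did not follow that order. Over the 14 tested exocrine genes (Amy2a5, Cpa1, Ctrb1 and others) the mean level was 1.07, -0.25, 0.70 and -0.19 in controls 1 to 4. It was 0.76, -0.45, -0.34 and -0.70 in knockouts 1 to 4. Knockout 1 had a higher exocrine mean than controls 2 and 4, and it had the lowest Ins1 and the lowest Ins2 level of the 8 arrays. The deletion was not limited to intestinal cells, and insulin RNA of the knockout pancreas was not measured here. In knockouts the exocrine level therefore cannot show how much insulin RNA any pancreas tissue would bring. Of the 14 genes, 4 had an unadjusted p under 0.05 with limma, 0 were lower past the adjusted threshold and 1, Bhlha15, was higher (1.76, SE 0.21, limma adjusted p = 0.00247). Their median difference was -0.74, against -0.05 over all tested genes. The part of pancreatic RNA in the insulin values was not tested.

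**Figure D2:**
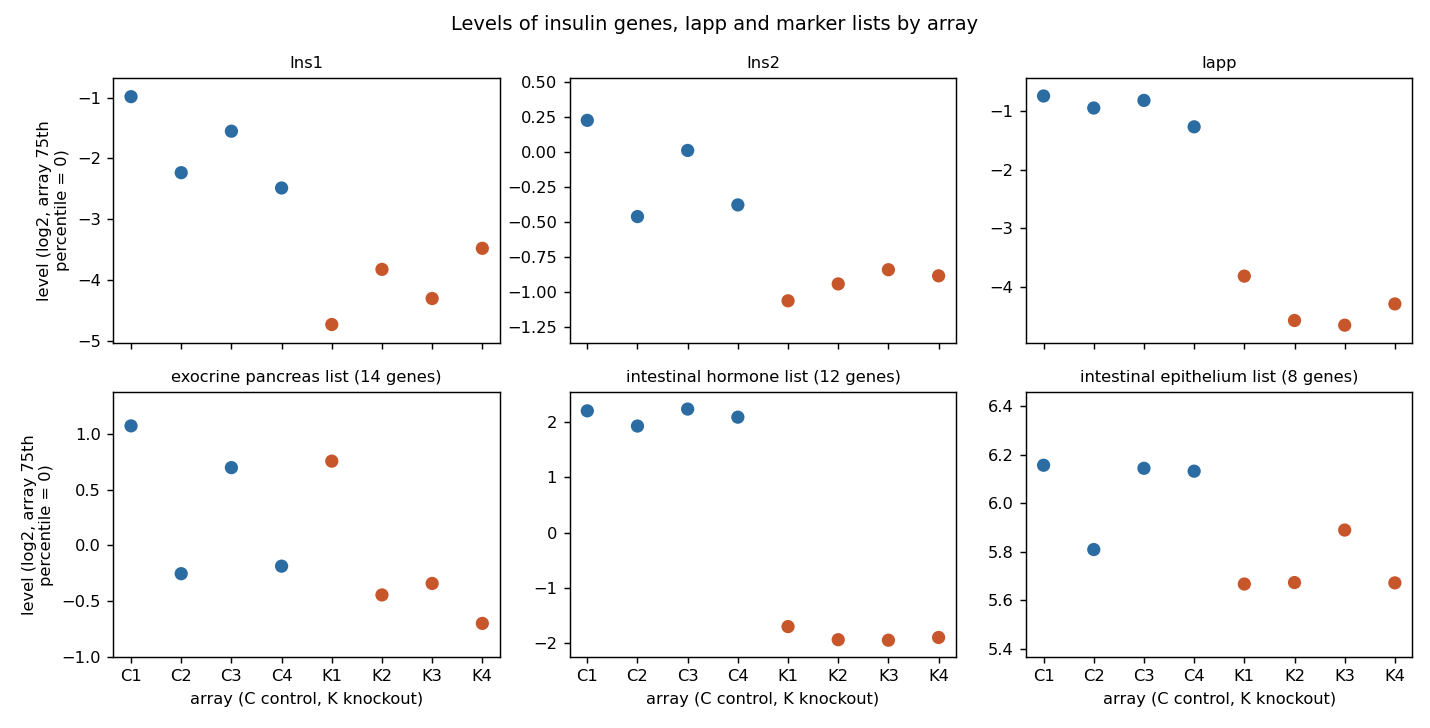
Log2 level, with the 75th percentile of the array at 0, of Ins1, Ins2 and Iapp and the mean level over 3 marker lists on 4 control (blue, C1 to C4) and 4 knockout (orange, K1 to K4) arrays. Each panel has its own vertical range. The exocrine pancreas mean is high in C1, C3 and K1, at 1.07, 0.70 and 0.76, while Ins1 is high in C1 and C3 and lowest in K1.

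Insl5 gave 481, 364, 821 and 614 units on control arrays 1 to 4 and 229, 232, 327 and 125 units on knockout arrays 1 to 4. Control 3 was highest and knockout 4 lowest, and the groups did not overlap, with 0.19 log2 units between the lowest control and the highest knockout level. The level was -0.31 ± 0.54 (SD, n = 4) in controls and -1.69 ± 0.50 (SD, n = 4) in knockouts. The difference of -1.38 (SE 0.31) is a 2.60-fold fall (limma adjusted p = 0.0400), close to the threshold. The call was lost with median centring (adjusted p = 0.0624), with no filter (adjusted p = 0.121), with the slide row as a block (-1.33, adjusted p = 0.104) and without any of 6 arrays: control 1 (-1.43), control 3 (-1.16), control 4 (-1.34), knockout 1 (-1.37), knockout 2 (-1.42) or knockout 4 (-1.16). The adjusted p without these arrays was 0.0966, 0.0789, 0.0864, 0.105, 0.102 and 0.0686 in that order.

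Pdx1 did not pass the threshold. It gave 96.0, 95.0, 124 and 151 units in controls 1 to 4 and 97.1, 34.7, 50.2 and 54.6 units in knockouts 1 to 4. Knockouts 2, 3 and 4 lay below every control, while the unscaled signal of knockout 1 exceeded those of controls 1 and 2. After scaling, knockout 1 was 0.05 log2 units below the lowest control. The level was -2.56 ± 0.32 (SD, n = 4) in controls and -3.65 ± 0.58 (SD, n = 4) in knockouts, a difference of -1.09 (SE 0.28, limma adjusted p = 0.0628). Without knockout 1 the difference was -1.33 (adjusted p = 0.0228), and with normexp it was -0.56 (adjusted p = 0.0333), both past the threshold.

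Slc30a8 and G6pc2 gave no measurable difference. Slc30a8 was read at 5.45, 8.72, 5.24 and 170 units in controls 1 to 4 and at 11.2, 4.81, 4.88 and 4.02 units in knockouts 1 to 4. Only the 170 units of control 4 were well above background, and the groups overlap. The G6pc2 probe lay between 7.68 and 9.39 units in controls and between 3.64 and 7.89 units in knockouts, and was well above background on 0 of 8 arrays, so no difference can be read from it. Tested with no filter, the adjusted p was 0.131 for G6pc2 and 0.533 for Slc30a8 (limma).

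An exact two-sided permutation test of the levels gave p = 0.0286, unadjusted, for each of Ins1, Ins2, Iapp, Insl5 and Pdx1. This is the smallest p that 4 against 4 arrays allow. The G6pc2 values, at background on 8 of 8 arrays, gave the same exact permutation p of 0.0286, so this separation also occurs in a probe with no measured signal. The 8 arrays sat on a single slide read in 1 scan, where row 1 held control 1 with knockouts 2, 3 and 4, and row 2 held controls 2, 3 and 4 with knockout 1. Within row 1 and row 2 in turn the differences were -3.77 and -2.81 for Iapp, -2.89 and -2.64 for Ins1, and -1.12 and -0.79 for Ins2. They were -1.22 and -1.44 for Insl5, and -1.11 and -0.44 for Pdx1. All 10 of these values are below 0, and each rests on a lone array in 1 of the groups.

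**Figure D3:**
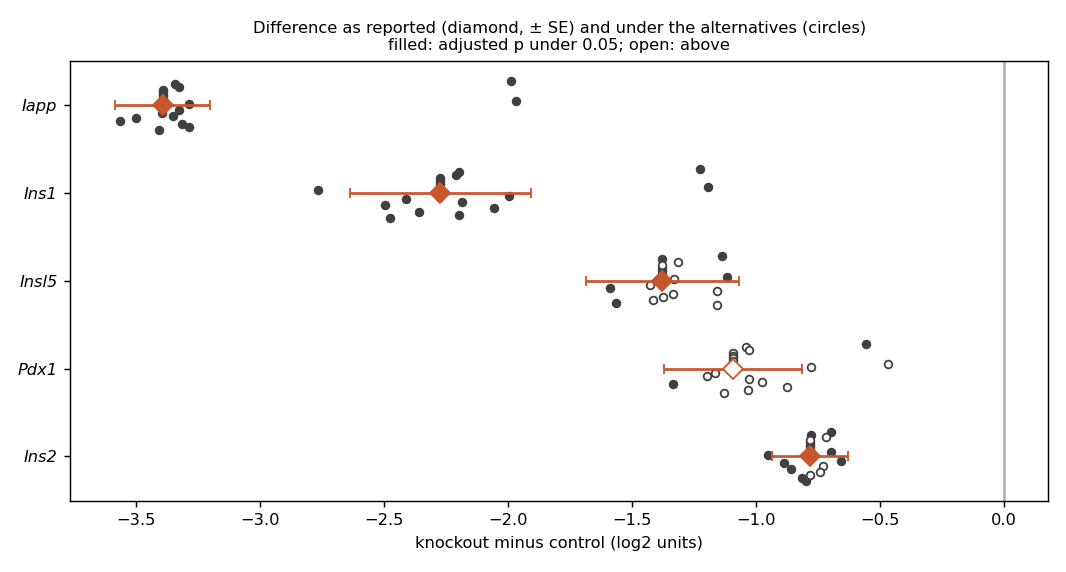
Knockout minus control difference (log2 units) of the 5 tested genes as reported (orange diamond, bar ± SE) and under each alternative way of processing, blocking or leaving out an array (circles). Filled symbols have an adjusted p under 0.05. Every Iapp circle is filled, and the circles farthest to the right for Iapp and Ins1 (-1.99 and -1.97, -1.22 and -1.19) are normexp and the authors' quantile-normalized values.

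The differences of the 5 tested genes were compared with each other over all 10 pairs, by subtracting 1 gene's level from the other's on each array. The knockout minus control difference of Iapp minus that of Insl5 was -2.01 log2 units, of Iapp minus Pdx1 -2.30 and of Ins1 minus Ins2 -1.49, and that of Ins2 minus Iapp was 2.61. For these 4 pairs the groups did not overlap and the exact permutation p was 0.0286 each, or 0.0714 after adjustment over the 10 pairs, so none passed 0.05. For the insulin genes the -1.49 stands against a spread of the same quantity within groups of 0.38 in controls and 0.50 in knockouts (SD, n = 4 each). Any Ins2 RNA bound by the Ins1 probe would enter this value and was not measured. The pairs were compared on the processed signal only, where the Ins1 and Iapp knockout values lie near background. With normexp the differences lay closer together, at -1.22 for Ins1 and -0.70 for Ins2, and at -1.99 for Iapp and -1.14 for Insl5. In the authors' quantile-normalized values they were -1.19 and -0.70, and -1.97 and -1.12. Ins1 minus Iapp was 1.12 with overlapping groups (exact permutation p = 0.0857, adjusted 0.171). The remaining 5 pairs had exact permutation p-values between 0.143 and 0.486.

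The promoters of Ins1 and Iapp are shown because these genes had the largest falls, and because promoters of beta cell genes are known for TAAT sites, the core that Pdx1 and other homeodomain factors bind. The 250 bases before the start site are given 5′ to 3′ from RefSeq (GRCm38.p6), with TAAT on either strand in capitals. Ins1 is chr19:52264047-52264296 and Iapp is chr6:142298175-142298424, both on the plus strand.
Ins1: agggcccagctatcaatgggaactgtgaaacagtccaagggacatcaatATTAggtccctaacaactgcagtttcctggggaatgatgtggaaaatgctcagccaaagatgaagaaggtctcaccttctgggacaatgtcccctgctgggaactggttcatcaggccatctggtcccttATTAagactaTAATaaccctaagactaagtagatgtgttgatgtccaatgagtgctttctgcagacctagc
Iapp: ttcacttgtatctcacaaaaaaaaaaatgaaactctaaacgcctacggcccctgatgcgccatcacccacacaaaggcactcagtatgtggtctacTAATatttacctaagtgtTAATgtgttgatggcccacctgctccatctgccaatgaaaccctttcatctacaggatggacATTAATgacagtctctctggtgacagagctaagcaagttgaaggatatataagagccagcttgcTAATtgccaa
The Ins1 window holds 3 TAAT matches and the Iapp window 5, of which 2 overlap as ATTAAT. Of 32851 windows of the same length, 54.9% hold at least 1, 17.3% at least 3 and 5.54% at least 5.

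Of the 7 genes, 5 had an entry in the promoter table, Insl5 and G6pc2 with 2 start sites each, and Ins2 and Slc30a8 were not matched. Insl5 had 2 TAAT matches before each start, G6pc2 had 1 and 3, and Pdx1 had 0. The E box CANNTG, which factors such as Neurod1 bind, was found 2 times before Ins1 and 3 times before Iapp, and in 66.2% of all windows. It was found 2 and 2 times before the Insl5 starts, 1 and 4 times before the G6pc2 starts and 3 times before Pdx1. GTTNCC, an arm of the X box that RFX factors bind, was found on either strand 3 times before Ins1 and 0 times before Iapp. Before the Insl5 starts it was found 1 and 0 times, before the G6pc2 starts 2 and 1 times and before Pdx1 0 times. Of all windows 39.4% hold it at least once and 1.93% at least 3 times. A pair of arms facing each other, GTTNCC and then GGNAAC with 0 to 3 bases between, was in none of the 7 windows and in 0.673% of all windows. A match describes these letters only.

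The other genes of the insulin pathway and of the islet were read from fixed lists. Among peptides of the insulin, relaxin and insulin-like growth factor family, 6 of 9 were tested and 3 were lower, which are Ins1, Ins2 and Insl5. The growth factors Igf1 (-0.14, SE 0.10) and Igf2 (0.17, SE 0.12), the latter a neighbour of Ins2 in the genome, had a limma adjusted p of 0.443 each. Insl6 differed by -0.42 (SE 0.15, adjusted p = 0.158). The relaxin genes Rln1 and Rln3 did not pass the filter. The list's median difference was -0.60, and over its 3 genes outside the 7 it was -0.14, against -0.05 for all genes.

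Of 8 receptors of these peptides 5 were tested and 0 were called by limma, with 2 at an unadjusted p under 0.05 (median difference 0.23). The insulin receptor Insr differed by 0.25 (SE 0.10, adjusted p = 0.203) and Igf1r by 0.48 (SE 0.19, adjusted p = 0.186). Rxfp4, the receptor of Insl5, was well above background on 1 control and 0 knockout arrays. In the calcitonin and amylin family, which includes the amylin receptor subunits Calcr and Ramp1 to Ramp3, 7 of 10 were tested. Only Iapp was called, and the median of the other 6 was 0.13. Calca (0.07, SE 0.13, adjusted p = 0.780) and Calcb (0.27, SE 0.11, adjusted p = 0.198), the genes of calcitonin gene-related peptides, were not. Calcr was well above background on no array. Of 13 insulin signalling genes, among them Irs1, Akt2 and Foxo1, 13 were tested and 0 were called by limma, with 3 at an unadjusted p under 0.05. The list's median difference was -0.0049, and 0.11 under quantile normalization.

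Of 19 transcription factors of the beta cell and its precursors, 14 were tested. By limma 0 were lower and 1 was higher at the adjusted threshold, with 4 at an unadjusted p under 0.05. Foxa2, a forkhead factor of endoderm, rose by 1.00 (SE 0.14, adjusted p = 0.00456). Isl1 (-0.86, SE 0.24, adjusted p = 0.0823) and Neurog3 (0.46, SE 0.13, adjusted p = 0.0820), the factor that starts endocrine differentiation, did not pass, though both did without knockout 4 (-1.05 and 0.56, adjusted p = 0.0429 and 0.0402). Mafa (-0.04, SE 0.07, adjusted p = 0.764) and Nkx6-1 (-0.27, SE 0.12, adjusted p = 0.258), factors of the mature beta cell, did not either. The list's median was -0.08, and 0.03 under quantile normalization.

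Of 12 genes of glucose sensing and beta cell channels, 8 were tested and 1 was lower. That gene is Slc2a2, the glucose transporter of beta cells and of the intestinal epithelium (-0.68, SE 0.12, limma adjusted p = 0.0147). Slc2a2 lost its call with median centring, no filter or the slide row block and without control 1 (-0.66) or knockout 2 (-0.64), with adjusted p-values up to 0.0572. The list's median was 0.04 (-0.06 with normexp). Of 15 prohormone processing and zinc genes, 14 were tested and 3 were lower: Iapp, listed there as granule cargo, the zinc transporter Slc30a5 (-0.49, SE 0.07, adjusted p = 0.00514) and Ero1b, an oxidase of disulfide formation (-0.46, SE 0.07, adjusted p = 0.00862). Ero1b lost its call with median centring (adjusted p = 0.0615). With the replicate number as a block Ero1b (adjusted p = 0.0760) and Slc30a5 (adjusted p = 0.0678) both lost theirs. The convertases Pcsk1 (-0.12, SE 0.10, adjusted p = 0.554) and Pcsk2 (-0.14, SE 0.07, adjusted p = 0.301), which cut proinsulin, were not called. Chga, a granule protein of endocrine cells, differed by 0.26 (SE 0.23, adjusted p = 0.561).

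**Figure D4:**
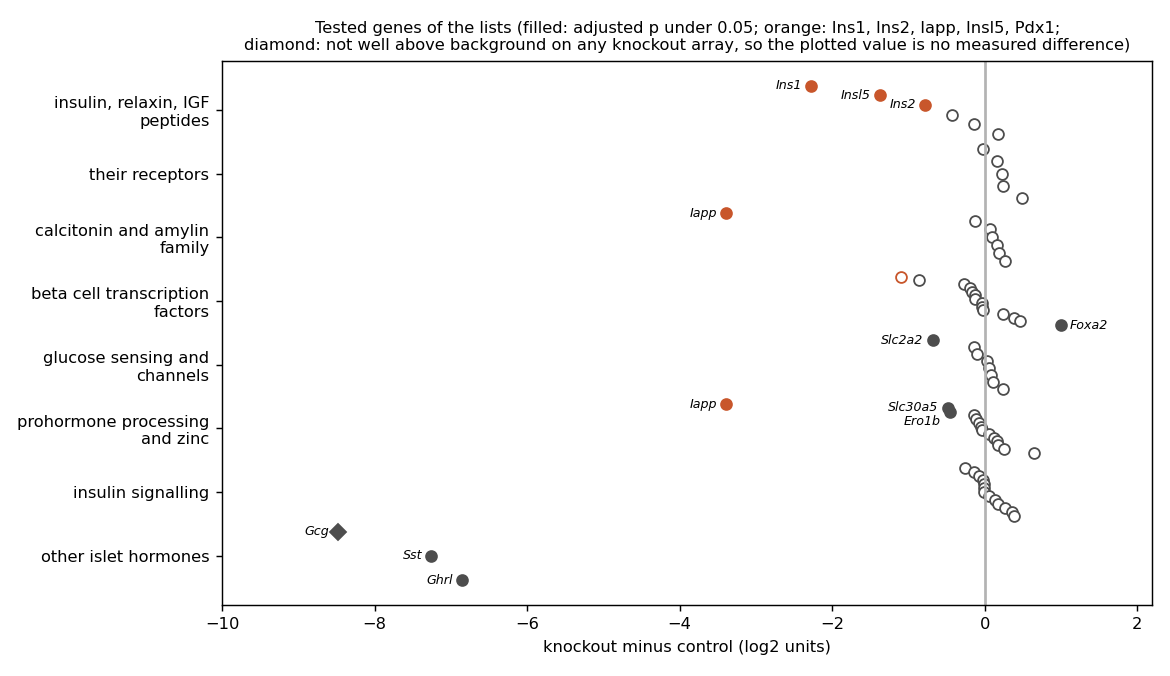
Knockout minus control difference (log2 units) of the tested genes of 8 lists, 1 symbol per gene. Filled symbols have an adjusted p under 0.05, orange marks Ins1, Ins2, Iapp, Insl5 and Pdx1, and diamonds mark genes not well above background on any knockout array, whose plotted value is no measured difference. Most open symbols lie near 0, and the called genes of the peptide lists lie to the left.

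Hormones of other islet and gut endocrine cells were read beside the insulin genes. Of 4 other islet hormones 3 were tested and 3 were lower. Gcg, the glucagon gene, was at least 111-fold lower, with 0 knockout arrays well above background (limma adjusted p = 8.0e-09). A fold written as "at least" sets the control mean against the lowest signal well above background on each knockout array. Sst, the somatostatin gene, was well above background on 4 control arrays and 1 knockout array. It was called lower under the 17 alternatives in which it was tested, but with 3 knockout values at background the size is loose, at -7.25 as read and -5.00 with normexp. Ghrl, the ghrelin gene, differed by -6.85 (SE 0.09) and was well above background on all 8 arrays. Ppy, the pancreatic polypeptide gene, was well above background on 1 control and 0 knockout arrays. Of 12 intestinal endocrine hormones and markers, all tested, 8 were lower, Insl5 among them, and 1, Tac1, was higher (0.45, SE 0.10, adjusted p = 0.0406). Tac1 lost its call without any of 7 arrays, with control 3 the exception, at differences of 0.39 to 0.49. It also lost the call with no filter, with the slide row as a block and with the replicate number as a block. Pyy, an L cell hormone like Insl5, differed by -2.65 (SE 0.87, adjusted p = 0.127), with levels of 0.35 to 1.38 in controls and of 1.41, -2.73, -2.78 and -2.56 in knockouts 1 to 4. Knockout 1 lay above every control, and without it Pyy was lower (-3.68, adjusted p = 0.00016). Knockout 1 is also the knockout with the highest exocrine pancreas mean (0.76), whose part in the Pyy value was not tested. With the slide row as a block the Pyy difference was -1.68 (adjusted p = 0.289). The difference of these genes from the insulin genes was not tested.

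Of 8 genes that define beta cells 6 were tested and 4 were lower, of which Ucn3, a peptide of mature beta cells, is the only gene outside the 7. Ucn3 was at least 3.27-fold lower, with 0 knockout arrays well above background (limma adjusted p = 0.00125). Pdx1 is also on a list of duodenum genes, of which 7 of 8 were tested. There 1 was lower, Gata4 (-0.51, SE 0.12, adjusted p = 0.0396), a call lost without any of 7 arrays, with control 2 the exception, at differences of -0.55 to -0.42. The Gata4 call was also lost with median centring, no filter, the slide row block or the replicate block. Onecut2 differed by -0.86 (SE 0.21, adjusted p = 0.0551), and by -1.03 without knockout 1 (adjusted p = 0.0242). Insl5 can be set beside the colon and posterior gut list, of which 5 of 10 were tested. There 1 was lower, Prdm16 (-0.87, SE 0.09, adjusted p = 0.000891).

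Likeness of pattern was measured as the root mean square difference, over the 8 arrays, between levels centred on their own mean. The measure takes in the difference between the groups. Genes with a fall of similar size therefore rank as near, and a shared order of arrays within a group was not tested. Near Iapp lay the transcript ENSMUST00000066533 and Lipf, gastric lipase, at 0.61 log2 units each. Closest to Ins1 were Lipf (0.43), Csf2 (0.47) and Sct, the secretin gene (0.55). Insl5 had 79 genes within 0.5, closest among them Mbl2 (0.21), Nat8f5 (0.26) and Scg2, secretogranin II of endocrine granules (0.28). Closest to Ins2 were Lrrc4 (0.12), Cyp4f14 and Spns3 (0.13 each). Ins2 itself varied by only 0.44 about its mean, so a flat gene also lies within 0.5 of it and the measure says little there.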

How the data were processed

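Per the labels' protocols, RNA was extracted, amplified from 100 ng and labelled with 1 dye. The deposited scanner files give an intensity per spot, background-subtracted by Feature Extraction 10.10.1.1 per the file headers. The authors' series matrix holds quantile-normalized intensity without background subtraction, as comparison with the spot medians showed. Its scale is linear and every array's median is 129.6.

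Of 62976 spots, 3671 control spots and outlier-flagged spots (153 to 355 per array) were left out, and spots of a probe were averaged. The processed signal was divided by its 75th percentile on that array (636 to 741 units) and taken to log2. On an array 57.4% to 67.1% of probes were well above background. Probes well above background on all 4 arrays of a group were kept (31668). The brightest probe stood for a gene. RefSeq tables supplied current names.

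Groups were compared with limma 3.58.1 (R 4.3.3) across 23282 genes, Benjamini-Hochberg adjusted, threshold 0.05. The code was tested on simulated data. Same-numbered arrays did not deviate together (correlations -0.41 to 0.07). The number of arrays limits precision. The genes and lists were chosen with earlier results of these data known. Some results are not reported here, and the lists are counted without them. Named are the 7 genes, called list genes (up to 4 of a marker list), genes defining a cell type, and the 3 nearest patterns. Other list genes, and the pair comparison and slide rows, were chosen after values were seen.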

Additional observations from a re-analysis of the deposited data

Results flagged for a closer look

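Within each group of 4, the highest or lowest level was set against the others by Dixon's ratio, for the 7 genes, Rfx6 and the list genes named with values. Of 106 groups 11 (10.4%) held such an array, where chance gives about 1 in 20. Levels are log2 with the array's 75th percentile at 0. Slc30a8 in control 4 was at -2.03 and the other controls between -6.94 and -6.32. This was the only Slc30a8 value well above background. Slc30a8 in knockout 1 was at -6.05 and the others between -7.30 and -7.16, all at background. Pyy in knockout 1 was at 1.41 against -2.78 to -2.56 in the other knockouts. Igf1 in knockout 2 was at 0.87 against 1.08 to 1.11, and Neurog3 in knockout 4 at 0.72 against 1.09 to 1.15. Rfx6 in control 4 was at -3.74 against -2.98 to -2.91. Slc2a2 in control 2 was at 2.59 against 2.86 to 2.90, and Sst in control 2 at 1.75 against 1.98 to 2.03. Ero1b in knockout 3 was at -1.20 against -1.32 to -1.31. Gata4 in knockout 2 was at 0.96 against 1.33 to 1.37. Atp4a in control 3 was at -5.95 against -6.57 to -6.48, at background in all controls.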

How the results depend on the processing

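Each of the 5 tested genes stayed lower in the knockout under every alternative. Iapp kept its call under 18 of 18, Ins1 under 16 of 17, Ins2 under 12 of 18 and Insl5 under 8 of 18. Pdx1 stayed above the threshold under 16 of 18. With the replicate number as a block, which does not pair these samples, Ins1 (-2.27, adjusted p = 0.0791), Ins2 (-0.78, 0.0907) and Insl5 (-1.38, 0.0612) lost their calls. Under this block 1 of the 7 genes was called lower, and over all genes 148 were lower and 268 higher. With no filter 2 of the 7 were called, Ins2 (-0.78) and Insl5 (-1.38) were not, and 203 genes were lower and 298 higher. With median centring 2 of the 7 and 253 genes were lower, with Ins2 at -0.72 and Insl5 at -1.31. The slide row block gave -1.33 for Insl5. Pdx1 passed with normexp (-0.56). Within slide rows, Iapp was -2.81 in row 2, Ins2 -1.12 in row 1 and Pdx1 -0.44 in row 2. Leaving out 1 array at a time gave -0.89 to -0.66 for Ins2, -1.59 to -1.16 for Insl5 and -1.33 to -0.87 for Pdx1. It gave 2 to 4 of the 7 genes lower (2 without control 3 or knockout 2), 233 to 592 genes lower and 349 to 517 higher. The cause was not tested. Of 993 values of 56 other genes, 902 kept direction and side of the threshold, 80 lost the call, 6 gained it and 5 changed sign, none of these called: Mafa (0.025 with quantile normalization, 0.024 with median centring, 0.012 in the series matrix) and Calca (-0.023 with normexp, and from -0.025 to 0.18 on leaving out 1 array). With well-above-background calls required on 8 arrays, Ins1 was not tested. G6pc2 and Slc30a8 were measured only with no filter.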
